A study of Bombyx mori with 4 samples.

Results

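Knockdown of BmPHO and of BmSCM, a pair of Polycomb genes, was set against knockdown of BmSCE and of BmESC, another pair, in cultured silkworm cells. Of 23229 gene probes on the array, 6491 passed the spot flag on all 4 arrays and were compared, as the mean log2 ratio of the BmPHO and BmSCM RNAi arrays minus the mean of the BmSCE and BmESC RNAi arrays (2 arrays against 2). The cells were BmN4-SID1, a derivative of the silkworm ovary line BmN4 that takes up double-stranded RNA (dsRNA) from the medium, kept in IPL-41 with fetal bovine serum and harvested on day 7 of incubation with dsRNA. The 4 arrays carried, in Cy5, RNA of cells given dsRNA against BmPHO, BmSCM, BmSCE or BmESC, and each carried in Cy3 the RNA of cells given dsRNA against EGFP, a sequence from outside the silkworm. Every group, EGFP included, was thus a cell culture taking up dsRNA. Samples of 3 experiments were pooled for the single array of each knockdown before RNA was isolated, and dyes were not exchanged. The knockdowns of a pair are therefore not replicates of 1 condition, and the distance between the arrays of a pair is given as a spread, with no test. Each ratio below is the log2 of knockdown over EGFP RNAi on 1 array, and each difference is that of the pair means, on the log2 scale.

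Polycomb group proteins keep developmental genes silent through chromatin, and are best known from Drosophila for holding Hox genes off outside their domains. PRC1, which holds the RING finger protein Sce, and PRC2, which holds the WD40 protein Esc, modify histones H2A and H3. Pho is a zinc finger protein that binds DNA and brings the other complexes to their sites, and Scm is an MBT domain protein found with both Pho and PRC1 in the fly. Whether genes respond to loss of Pho and Scm and not to loss of the PRC1 or PRC2 subunit is the question that this contrast addresses.

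The array could follow the targeted gene for the BmSCE and BmESC knockdowns alone. The probe matched to DRING (sw15420), the fly RING protein encoded by Sce, read 0.34 in BmPHO, 0.21 in BmSCM, -3.02 in BmSCE and 0.56 in BmESC RNAi. It was low on the BmSCE RNAi array and nowhere else, with Cy5 intensities of 3599 in BmPHO, 3210 in BmSCM, 387 in BmSCE and 4794 in BmESC RNAi. The match to extra sex combs (sw12637), the gene of Esc, read -0.33 in BmPHO, -0.68 in BmSCM, 0.13 in BmSCE and -2.61 in BmESC RNAi. The low array was again that of its own knockdown. The match to sex comb on midleg (sw13820) did not pass the flag on any array, and no annotation naming Pho was found, so the BmPHO and BmSCM knockdowns could not be checked on these arrays.

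The 3 gene probes with a sequence in the array annotation that were called by the rule used below (a difference of at least 2-fold with no overlap between the pairs) are shown as examples of what the array measured. Of 100 gene probes with a sequence, 7 were measured on all arrays. The first pair have only a label and the third carries a gene model, placed by the annotation on scaffold nscaf2901 from 1247739 to 1252312, of an assembly not given in the sources used here.
2th_013 (Ball-20): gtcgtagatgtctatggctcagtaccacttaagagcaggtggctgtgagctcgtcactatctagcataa
2th_019 (BbomB10-29): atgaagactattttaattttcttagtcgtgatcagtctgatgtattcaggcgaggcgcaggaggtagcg
2th_083 (BGIBMGA008279): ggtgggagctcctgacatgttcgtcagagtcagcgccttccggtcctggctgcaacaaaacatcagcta
The probe 2th_013 read 1.34 in BmPHO, 1.18 in BmSCM, 0.03 in BmSCE and 0.20 in BmESC RNAi, a difference of 1.14. The probe 2th_019 had the same shape, with 1.25 in BmPHO, 1.38 in BmSCM, 0.04 in BmSCE and 0.10 in BmESC RNAi, a difference of 1.25. Both were raised with loss of BmPHO or BmSCM and near the EGFP level with loss of BmSCE or BmESC. The probe 2th_083 ran the other way, with 0.23 in BmPHO, 0.43 in BmSCM, 1.58 in BmSCE and 2.47 in BmESC RNAi, a difference of -1.69. With each array scaled to the same spread, the differences were 0.83 for 2th_013 and 0.93 for 2th_019, below 2-fold.

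The arrays split into the same pairs in control spots that are not of the cells. The 8 yeast spike-in controls (Y1 to Y8) were read in 48 spots each. Y8 read 3.86 in BmPHO, 3.10 in BmSCM, 0.27 in BmSCE and 0.17 in BmESC RNAi, a difference of 3.26. Y6 read 1.96 in BmPHO, 1.87 in BmSCM, -0.91 in BmSCE and -0.98 in BmESC RNAi. For 7 of the spike-ins the pairs lay apart by 2.26 to 3.26, while Y5 differed by 0.37 with overlapping pairs. The difference lay mainly in Cy5, where it ran between 1.92 and 4.04, against -0.22 to 1.86 in Cy3. The 5 silkworm control probes, with 49 spots each, had pair differences between -0.33 and 0.17. A batch of labelling or hybridization that held BmPHO with BmSCM, and BmSCE with BmESC, cannot be told apart from the effect of the knockdowns in any result below.

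**Figure D1:**
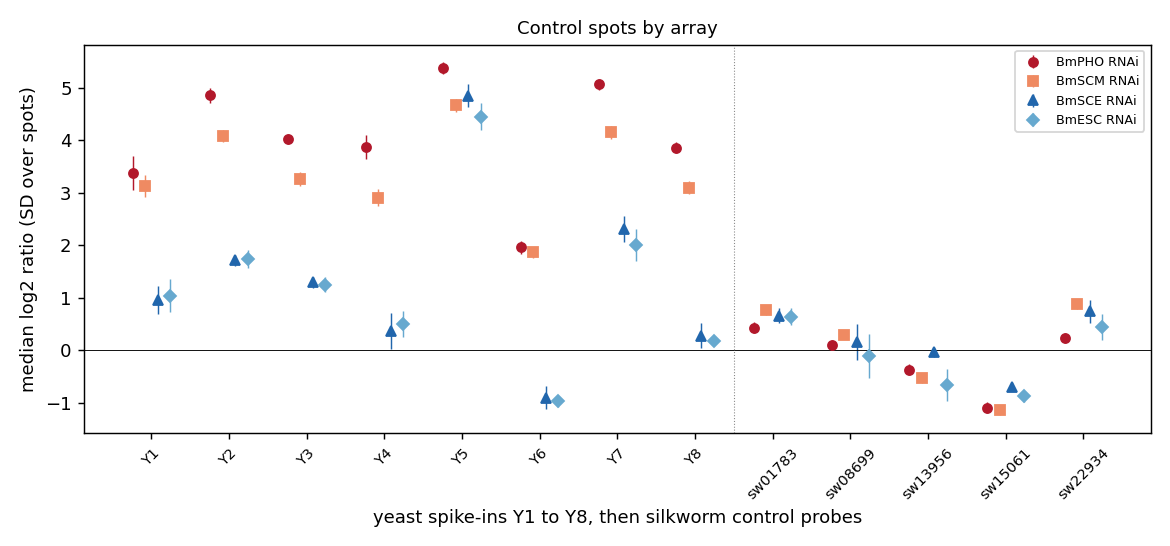
Median log2 ratio to EGFP RNAi (vertical axis, bars SD over spots) of 8 yeast spike-ins and 5 silkworm control probes on the BmPHO, BmSCM, BmSCE and BmESC RNAi arrays. All spike-ins but Y5 are higher on the BmPHO and BmSCM RNAi arrays by 2.26 or more, and the silkworm probes differ between the pairs by -0.33 to 0.17.

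Knockdown of BmPHO or BmSCM was set apart from knockdown of BmSCE or BmESC by 249 probes that were higher and 176 that were lower. This is 3.84% and 2.71% of the probes measured, and these shares are the background for every list below. The highest difference was 3.69, for a match to a Ty1-copia retrotransposon, and the lowest -2.06, for a match to beta-glucosidase. Names were found for 135 of the higher and 98 of the lower probes. Over all measured probes the differences had a median of -0.04 and an SD of 0.55, with 5th and 95th percentiles of -0.85 and 0.92. A further 4 higher and 6 lower probes passed 2-fold with overlapping pairs and were not called. Without a minimum size, the pairs lay apart in 26% of probes with BmPHO and BmSCM RNAi higher and in 29.3% with them lower.

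The log ratios had a wider spread in BmPHO and BmSCM RNAi (SD 0.77 and 0.75) than in BmSCE and BmESC RNAi (SD 0.44 and 0.60). With each array scaled to the same median absolute deviation, 123 probes were higher and 155 lower, so that the higher made up 44.2% of the calls, against 58.6% without scaling. Of the 249 higher probes, 94 kept their call under that scaling, and 95 of the 176 lower. With the loess curve fitted to spots with both channels above background, 295 were higher and 126 lower, so that the higher made up 70.1%. The count of lower probes was 265 without BmSCM RNAi and 304 without BmSCE RNAi.

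The spread inside each pair was measured as the distance between its arrays. The median distance between BmPHO and BmSCM RNAi was 0.25, and that between BmSCE and BmESC RNAi also 0.25, with 95th percentiles of 0.81 and 0.94. In the higher probes these medians were 0.27 and 0.28, and in the lower probes 0.37 and 0.44. In 140 of the higher probes (56.2%) and 61 of the lower (34.7%) the arrays of both pairs agreed within 0.5, against 64.9% of all measured probes. Lower probes thus had the wider spread inside the pairs. At least 2-fold apart between BmPHO and BmSCM RNAi were 17 lower probes (9.66%) and 6 higher (2.41%), against 135 of all measured (2.08%). Between BmSCE and BmESC RNAi these were 24 lower (13.6%) and 12 higher (4.82%), against 262 of all measured (4.04%). The gap from the nearest array of one pair to the nearest of the other was at least 2-fold in 109 higher and 34 lower probes. Over measured probes the log ratios of BmPHO and BmSCM RNAi correlated at 0.86 and those of BmSCE and BmESC RNAi at 0.63, against 0.56 to 0.58 across the pairs. All of these share the EGFP RNAi RNA, and genes are not replicates.

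**Figure D2:**
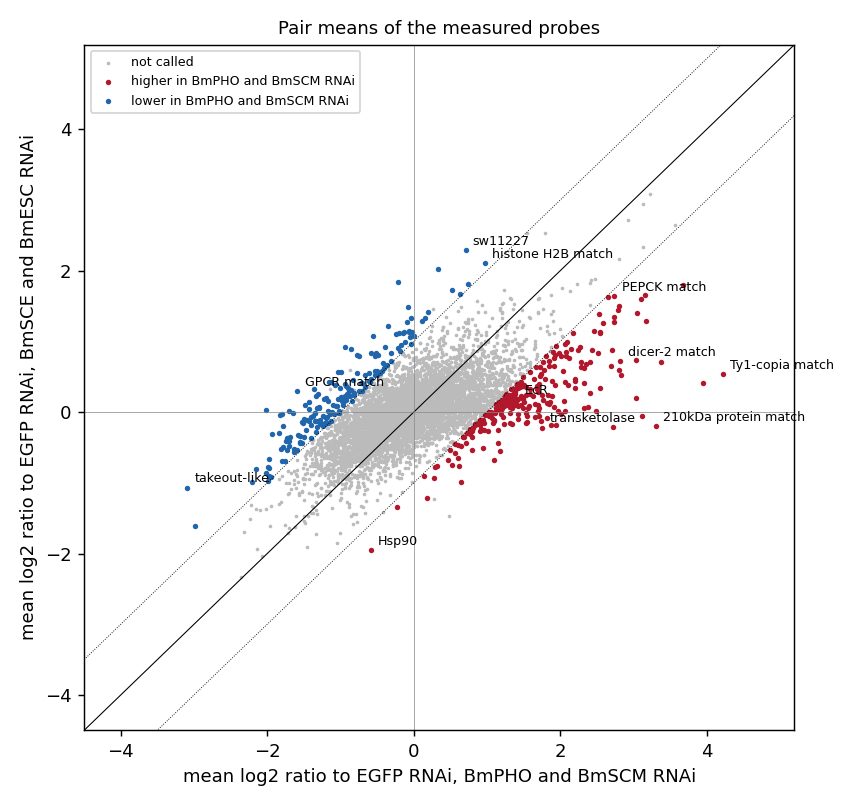
Mean log2 ratio to EGFP RNAi of BmPHO and BmSCM RNAi (horizontal) and of BmSCE and BmESC RNAi (vertical) for 6491 measured probes, with 249 higher probes in red and 176 lower in blue. Dotted lines mark a difference of 2-fold, and most red points lie right of 1 on the horizontal axis and near 0 on the vertical one.

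Most higher probes were above EGFP RNAi in BmPHO and BmSCM RNAi and near it in BmSCE and BmESC RNAi. The probes were called on these same values, and the BmPHO and BmSCM arrays had the wider spread. This shape therefore follows in part from the rule, and the counts describe the called probes only. Their pair mean in BmPHO and BmSCM RNAi passed 2-fold in 206 of 249, while in BmSCE and BmESC RNAi it stayed within 0.5 in 173. The median pair means were 1.48 in BmPHO and BmSCM RNAi and 0.15 in BmSCE and BmESC RNAi. In 162 probes each of the BmPHO and BmSCM arrays was past 2-fold and each of the BmSCE and BmESC arrays within it. Probes that were raised in both pairs, with BmSCE and BmESC RNAi also past 2-fold, numbered 17. The lower probes were less uniform. Their pair mean in BmPHO and BmSCM RNAi was at least 2-fold below EGFP RNAi in 94 of 176, and in 24 the mean of BmSCE and BmESC RNAi was at least 2-fold above it. The median pair means of the lower probes were -1.07 in BmPHO and BmSCM RNAi and 0.17 in BmSCE and BmESC RNAi. No called probe passed 2-fold in opposite directions in the pairs.

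The difference lay mainly in the knockdown channel. Cy3 carried EGFP RNAi RNA on every array and was quantile normalized across them, so a small difference there was to be expected. The spike-ins also differed mainly in Cy5, so the channels do not tell the knockdowns apart from a batch. In higher probes the median difference was 1.20 in Cy5, the knockdown RNA, and -0.03 in Cy3, the EGFP RNAi RNA. In lower probes it was -1.11 in Cy5 and 0.09 in Cy3. Taken in Cy5 alone, 182 higher and 106 lower probes were still past 2-fold, and in Cy3 4 higher and 1 lower were past 2-fold in either direction. The share called depended on brightness, with 4.13%, 4.74%, 4.01% and 2.46% higher from the dimmest to the brightest of 4 equal bins of probes and 4.31%, 3.51%, 2.10% and 0.924% lower. Where both channels were at least 400 on all arrays, 3.23% of 5387 probes were higher (174) and 1.93% lower (104).

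**Figure D3:**
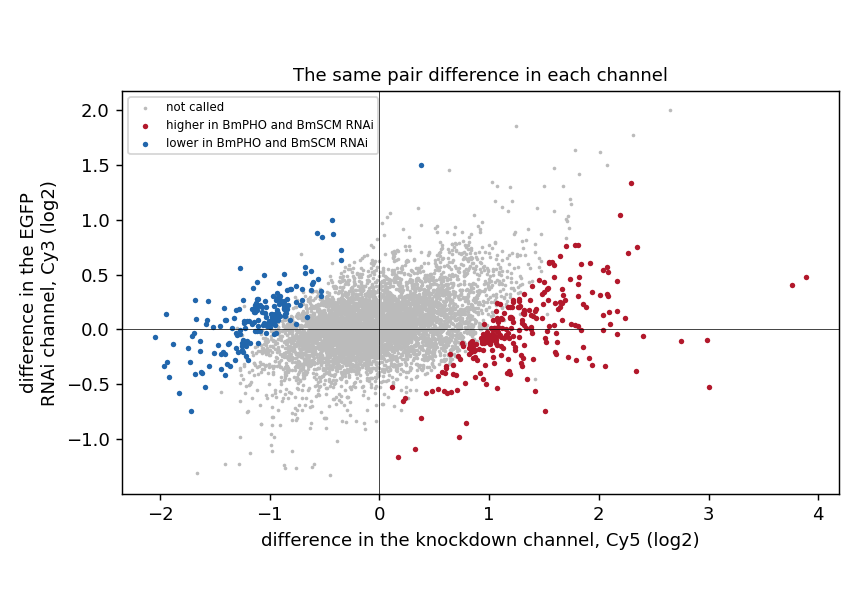
Difference between BmPHO and BmSCM RNAi and BmSCE and BmESC RNAi in the knockdown channel (horizontal, log2) and in the EGFP RNAi channel (vertical, log2) for the measured probes. Higher probes (red) spread to the right with a median of 1.20 and lower probes (blue) to the left with a median of -1.11, while their medians on the vertical axis are -0.03 and 0.09.

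The probes that differed most were matched to a plant retrotransposon and to proteins known from other insects. The Ty1-copia match (sw22765), named from a rice protein, read 4.40 in BmPHO, 4.05 in BmSCM, -0.19 in BmSCE and 1.27 in BmESC RNAi. Its Cy5 intensity was 17077 in BmPHO and 18039 in BmSCM RNAi, against 685 in BmSCE and 2707 in BmESC RNAi, while Cy3 stayed between 672 and 997. The signal of the knockdown RNA thus set the pairs apart, with little change in the EGFP RNA. A match to the 210kDa protein of the flesh fly Sarcophaga (sw22447) read 3.48 in BmPHO, 3.14 in BmSCM, 0.61 in BmSCE and -1.01 in BmESC RNAi. The second probe with that name, sw18355, had the same order of arrays and a difference of 3.17. A match to blackjack of a grasshopper (sw09197) read 2.29 in BmPHO and 3.17 in BmSCM, against -0.16 in BmSCE and -0.26 in BmESC RNAi. The match to cytoplasmic protein 89BC of the fly (sw12041), which the study annotates as an AAA domain ATPase, had a difference of 2.84. Among probes with no name, sw22782 and sw22766 had differences of 3.55 and 2.47.

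**Figure D4:**
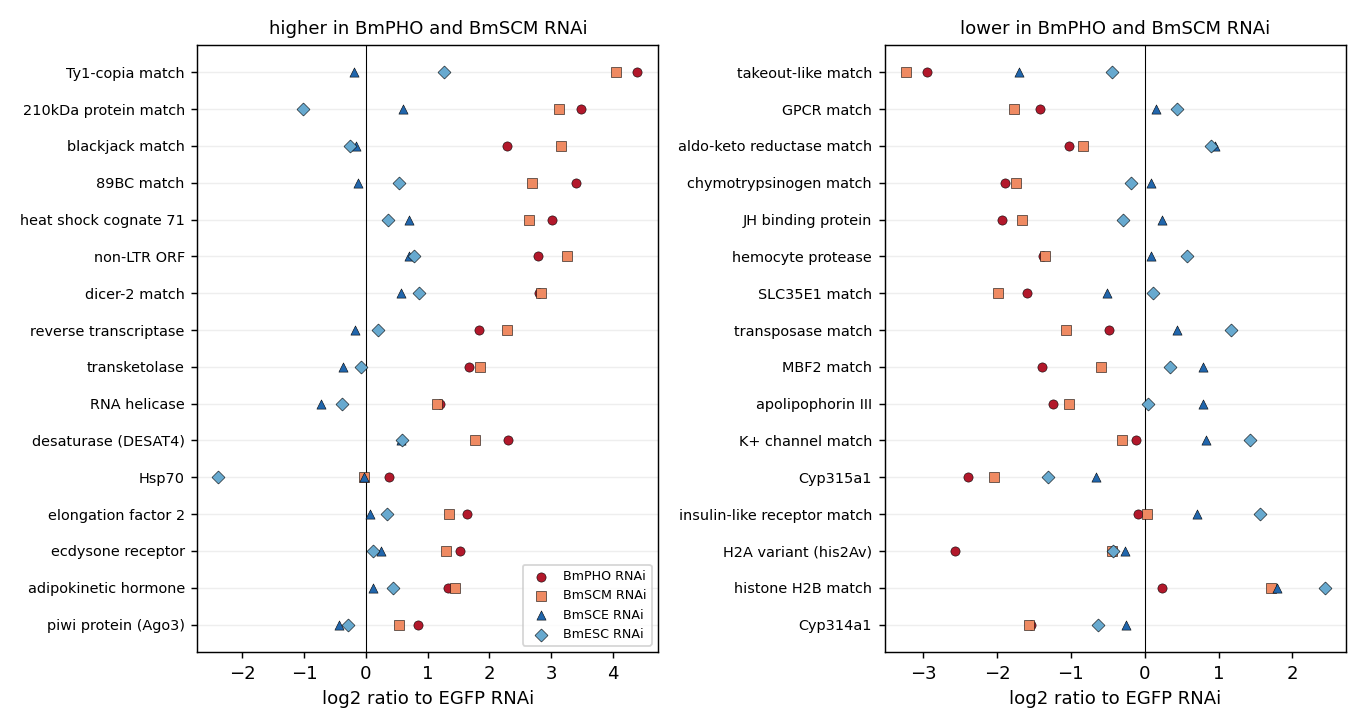
Log2 ratio to EGFP RNAi of 16 higher (left) and 16 lower (right) named probes, 1 symbol for each of the BmPHO, BmSCM, BmSCE and BmESC RNAi arrays. The arrays of a pair mostly sit together, with exceptions in Hsp70, where BmESC RNAi alone is at -2.39, and in the H2A variant, where BmPHO RNAi alone is at -2.57.

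Polycomb group genes themselves held no called probe. Of 16 probes on the array, some found with words added after their values were seen, 8 were measured, with a median difference of 0.22. This median ran between -0.03 and 0.37 over the alternatives, and on scaled arrays 1 member was lower, the M33 match. The DRING match had the largest difference, 1.50, but its pairs overlapped, since only its own knockdown array was low, and the extra sex combs match stood at 0.74 through its own array as well. Polyhomeotic is a PRC1 subunit with a SAM domain. One probe for it (sw17606) read 1.24 in BmPHO, 1.01 in BmSCM, 0.36 in BmSCE and 0.28 in BmESC RNAi. A second probe with that name, sw02381, had a difference of -0.49, and the probes disagree in direction. The match to M33 (sw14515), a mouse counterpart of Polycomb that binds methylated histone H3, read -0.11 in BmPHO, -0.03 in BmSCM, 1.04 in BmSCE and 0.58 in BmESC RNAi, a difference of -0.88. Polycomblike stood at 0.37, retinoblastoma binding protein 4 at 0.06 and enhancer of polycomb at 0.04. The other 8, among them matches to Suz12, Additional sex combs and an Scm-like protein with MBT domains, did not pass the flag on all arrays.

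Other chromatin lists were small, and 1 or 2 probes of each were called. Trithorax, the methyltransferase that opposes Polycomb silencing in the fly, was the called member of 11 trithorax group and Brahma probes (9.09%), with 1.52 in BmPHO, 1.31 in BmSCM, 0.69 in BmSCE and 0.11 in BmESC RNAi (sw14974). Its difference of 1.02 was 0.55 with scaled arrays, 0.91 without BmPHO RNAi and 0.73 without BmESC RNAi. Of 15 histone modifying enzymes 2 were higher (13.3%). A histone deacetylase match (sw12556) was higher by 1.15, and by 0.97 without BmSCE RNAi. A jumonji domain match (sw08986), of a family that removes histone methyl groups, was higher by 1.07, and by 0.89 without either BmSCM or BmESC RNAi. A Hox or homeobox match, to the ladybird protein Lbe (sw12515), was the called one of 11 measured (9.09%). It read 1.07 in BmPHO, 1.12 in BmSCM, -0.07 in BmSCE and -0.14 in BmESC RNAi. The other 56 of 67 Hox and homeobox probes were not measured on all arrays, and the median of the 11 was 0.01. With scaled arrays the jumonji match (sw08986) had 0.44 and the Lbe match (sw12515) 0.98, and none of the trithorax list, 1 of the histone modifying enzymes and none of the homeobox list was called higher.

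Core and linker histones were lower in 2 of 4 measured probes (50%), and 1 array decided both. The H2A variant his2Av (sw08118), which marks active and damaged chromatin, read -2.57 in BmPHO, -0.44 in BmSCM, -0.27 in BmSCE and -0.42 in BmESC RNAi. The match to histone H2B (sw18054) read 0.24 in BmPHO, 1.71 in BmSCM, 1.79 in BmSCE and 2.44 in BmESC RNAi. BmPHO RNAi was low in both and BmSCM RNAi lay beside the other pair. Without the BmPHO array the differences of -1.16 for sw08118 and -1.13 for sw18054 were -0.10 and -0.40. Without the BmSCM array they were -2.22 and -1.87, and without the BmESC array that of sw18054 was -0.81. With scaled arrays they were -0.74 and -1.95. A match to chromobox-like protein 5 (sw05786), the heterochromatin protein HP1, was singled out after its values were seen and read -1.82 in BmPHO, -1.35 in BmSCM, -0.54 in BmSCE and -0.10 in BmESC RNAi, a difference of -1.26 that was -0.79 with scaled arrays. Zinc finger proteins, many of them DNA-binding, had 6 lower and 1 higher of 111. The higher one (sw03476) stood at 2.21 and read 2.65 in BmPHO, 2.96 in BmSCM, 0.48 in BmSCE and 0.70 in BmESC RNAi, with 1.41 on scaled arrays, and the lower included sw06220 at -1.37.

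Genes of RNA interference were higher in 3 of 16 measured probes (18.8%) and lower in none. Dicer-2 cuts long dsRNA into small interfering RNAs in insects. A dicer-2 match (sw09354) read 2.81 in BmPHO, 2.83 in BmSCM, 0.57 in BmSCE and 0.87 in BmESC RNAi, a difference of 2.10 that was 1.27 with scaled arrays. The second, sw09480, read 2.88 in BmPHO, 2.20 in BmSCM, 0.74 in BmSCE and 1.54 in BmESC RNAi, a difference of 1.40 that was 0.999 without BmSCE RNAi and 0.54 with scaled arrays. Both were above EGFP RNAi on every array, and further above it in BmPHO and BmSCM RNAi. Of the dicer-2 matches that did not pass the flag on all arrays, sw13008 read 0.92 in BmPHO, 0.68 in BmSCM, -0.32 in BmSCE and 0.00 in BmESC RNAi, and sw01076 between 0.24 and 0.40 on all of them. The third called member, the piwi protein that RefSeq names Ago3 (sw00065), a germline slicer of transposon transcripts, read 0.84 in BmPHO, 0.54 in BmSCM, -0.43 in BmSCE and -0.28 in BmESC RNAi. Its difference of 1.05 was 0.89 without BmPHO RNAi and 0.97 without BmSCE RNAi.

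The remaining measured members of this machinery were not called. Dicer-1 makes microRNAs, and its measured matches stood at 0.81 (sw21234), 0.52 (sw19014) and -0.84 (sw09885), so the probes disagree in direction. Argonaute 2, the slicer that works with Dicer-2, had a difference of 0.39 (sw20403), with BmPHO RNAi at 0.88 and the other arrays within 0.12 of EGFP RNAi. Argonaute 1 (sw09466) stood at -0.06, while its second probe (sw09465), which passed the flag in BmPHO RNAi only, read 2.14 in BmPHO, 1.12 in BmSCM, 0.20 in BmSCE and 0.03 in BmESC RNAi. Of the other members, aubergine (sw10899) stood at 0.06, loquacious at -0.13 and armitage at -0.27. Matches to tudor domain proteins stood at 0.27 (sw16590), -0.26 (sw17672) and -0.29 (sw03896). A match to the dsRNA channel SID1 (sw07641) had 0.59, and a match to the Tudor staphylococcal nuclease (sw00820) 0.64. The list median was 0.33, against -0.04 over all measured probes, and stayed above 0 under every alternative (0.04 to 0.51).

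Retrotransposons of the non-LTR kind, which copy themselves through a reverse transcriptase, made up the list with the most higher probes. Of 106 measured, 16 were higher (15.1%) and 2 lower (1.89%), and 64 were above 0. A probe to an ORF of a silkworm non-LTR element (sw08019) read 2.80 in BmPHO, 3.26 in BmSCM, 0.70 in BmSCE and 0.79 in BmESC RNAi, a difference of 2.29 that was 1.38 with scaled arrays. Further probes with that annotation, given here for their shared name, were higher by 1.55 (sw17719), 1.48 (sw06349), 1.22 (sw21444) and 1.16 (sw18311), while sw16523 had a difference of -1.37, with BmPHO RNAi at -0.87 and the other arrays at 0.79 or more, and with -0.54 without BmPHO RNAi and -2.20 without BmSCM RNAi. With scaled arrays sw21444 had 0.54, and sw18311 had 0.93 without BmSCM RNAi and 0.97 without BmSCE RNAi. A reverse transcriptase match (sw10411) read 1.84 in BmPHO, 2.29 in BmSCM, -0.18 in BmSCE and 0.21 in BmESC RNAi. Another (sw20795) was raised on all arrays, at 3.18 in BmPHO, 3.17 in BmSCM, 1.40 in BmSCE and 1.18 in BmESC RNAi, and its difference of 1.88 was 0.77 with scaled arrays. Reverse transcriptase probes therefore ranged from change in BmPHO and BmSCM RNAi alone to higher levels on every array. A probe to the endonuclease of the telomere element TRAS1 (sw18973) was higher by 1.05 (0.36 with scaled arrays), and a silkworm reverse transcriptase (sw20840) had a difference of -1.56, which was -2.52 without BmSCE RNAi and -0.59 without BmESC RNAi. Several of these probes carry the same annotation, so they may share sequence and are not independent genes. The list median was 0.36, and 0.18 with scaled arrays, on which 10 probes were higher and 1 lower.

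Other mobile elements were called in both directions. LTR retrotransposons had 2 higher (14.3%) and 1 lower (7.14%) of 14, and a median of 0.04. Besides the Ty1-copia match, a copia-like polyprotein match (sw02890) was higher by 1.33, with the EGFP RNAi channel higher by 1.05, and by 0.96 without BmPHO RNAi and 0.90 with scaled arrays. A silkworm copia-like element (sw10324) had a difference of -1.12, which was -0.79 without BmPHO RNAi and -0.65 without BmESC RNAi. DNA transposons, which move by a transposase, had 1 higher (3.70%) and 3 lower (11.1%) of 27. A piggyBac match (sw19419) was higher by 1.01, and by 0.74 without BmSCM RNAi and 0.81 without BmESC RNAi. A transposase match (sw20183) read -0.48 in BmPHO, -1.06 in BmSCM, 0.44 in BmSCE and 1.17 in BmESC RNAi, a difference of -1.58. A Camar1 match (sw20320) had a difference of -1.33, and -0.75 without BmPHO RNAi, and a tigger match (sw10037) had -1.11, and -0.94 without BmPHO RNAi or -0.90 without BmSCE RNAi. With scaled arrays the piggyBac match (sw19419) had 0.59, the Camar1 match (sw20320) -0.99 and the tigger match (sw10037) -0.52. No test of a difference between these lists and the non-LTR list was run.

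Chaperones were higher in 4 of 40 measured probes (10%), with 2 different array patterns. That share includes heat shock cognate 71, whose words were added to the list after its values had been seen. Heat shock cognate 71 (sw12462), an Hsp70 that unstressed cells also make, read 3.02 in BmPHO, 2.65 in BmSCM, 0.70 in BmSCE and 0.36 in BmESC RNAi. Its difference of 2.30 was 1.51 in Cy5 and -0.75 in Cy3, and 1.49 with scaled arrays. Hsp70 (sw22145), the stress-induced chaperone, read 0.38 in BmPHO, -0.03 in BmSCM, -0.03 in BmSCE and -2.39 in BmESC RNAi, and Hsp90 (sw01900) read -0.83 in BmPHO, -0.35 in BmSCM, -1.06 in BmSCE and -2.84 in BmESC RNAi. Both calls came from the BmESC array, without which the differences of 1.39 and 1.36 were 0.21 and 0.47. Without the BmSCE array they were 2.57 and 2.25. A second Hsp70 probe (sw22585) had -3.23 in BmESC RNAi and overlapping pairs. A chaperonin subunit, CCT-alpha (sw17366), was higher by 1.06, and by 0.69 without BmPHO RNAi and 0.85 without BmSCE RNAi. The median of the list was 0.22 (0.14 to 0.43 over the alternatives), and none of 8 small heat shock protein probes was called.

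Called probes of hormone genes, drawn from several lists, went in both directions. The list of nuclear receptors and ecdysone response had 10 of 75 probes measured, 1 higher and 1 lower (10% each), with a median of 0.29. On scaled arrays 0 of that list were higher and 1 lower. The ecdysone receptor (EcR, sw18055), the nuclear receptor for the moulting hormone, read 1.53 in BmPHO, 1.30 in BmSCM, 0.24 in BmSCE and 0.12 in BmESC RNAi. Its difference of 1.24 was 0.86 with scaled arrays. Ecdysone 20-hydroxylase (Cyp314a1, sw16581), the enzyme that activates ecdysone, read -1.53 in BmPHO, -1.57 in BmSCM, -0.25 in BmSCE and -0.63 in BmESC RNAi. Cyp315a1 (sw17546), an enzyme of the last steps of ecdysone synthesis, read -2.39 in BmPHO, -2.04 in BmSCM, -0.66 in BmSCE and -1.31 in BmESC RNAi. Both enzymes were below EGFP RNAi on every array, and further below after loss of BmPHO or BmSCM. The difference of sw16581, -1.11, was -0.65 with scaled arrays and -0.92 without BmSCE RNAi, and that of sw17546, -1.23, was -0.48 with scaled arrays and -0.90 without BmSCE RNAi. The high affinity juvenile hormone binding protein (sw14879) read -1.93 in BmPHO, -1.67 in BmSCM, 0.23 in BmSCE and -0.29 in BmESC RNAi, and a match to takeout (sw13451), of a family that binds juvenile hormone-like lipids, read -2.95 in BmPHO, -3.24 in BmSCM, -1.70 in BmSCE and -0.44 in BmESC RNAi. The takeout difference of -2.02 was -0.93 with scaled arrays. An MBF2 match (sw13224), whose protein is known in the silkworm as a coactivator of the nuclear receptor FTZ-F1, read -1.39 in BmPHO, -0.59 in BmSCM, 0.79 in BmSCE and 0.34 in BmESC RNAi.

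Few genes of energy hormones and sugar metabolism were called, and most of those were higher. The adipokinetic prohormone (AKH1, sw09642), whose peptide releases stored fat and sugar, read 1.33 in BmPHO, 1.44 in BmSCM, 0.12 in BmSCE and 0.44 in BmESC RNAi, a difference of 1.10 that was 0.94 without BmSCE RNAi. The match to the insulin-like peptide receptor (sw12115) read -0.08 in BmPHO, 0.03 in BmSCM, 0.71 in BmSCE and 1.56 in BmESC RNAi, and its difference of -1.16 was -0.74 without BmESC RNAi. Transketolase (sw00306), of the pentose phosphate pathway, read 1.67 in BmPHO, 1.84 in BmSCM, -0.37 in BmSCE and -0.07 in BmESC RNAi. Matches to malate dehydrogenase (sw14808) and citrate synthase (sw17936), of the citric acid cycle, were higher by 1.13 and 1.09, and the citrate synthase difference was 0.84 without BmSCE RNAi. Phosphoenolpyruvate carboxykinase (sw19873), which starts glucose synthesis, read 3.24 in BmPHO, 2.25 in BmSCM, 1.95 in BmSCE and 1.33 in BmESC RNAi. It was raised on every array, and its difference of 1.10 was -0.034 with scaled arrays, 0.61 without BmPHO RNAi and 0.80 without BmESC RNAi. Called carbohydrate probes numbered 3 of 49 measured (6.12%), and all were higher. The carbohydrate list as a whole did not shift, with 25 of 49 above 0 and a median of 0.004. The insulin and FOXO list had 2 higher (33.3%) and 1 lower (16.7%) of 6, but 0 higher and 1 lower with scaled arrays. Its median of 0.64 ran between -0.33 and 1.10 over the alternatives. With scaled arrays AKH1 (sw09642) had 0.73, malate dehydrogenase (sw14808) 0.78 and citrate synthase (sw17936) 0.77, and 1 carbohydrate probe was called.

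Lipid genes had 4 higher and no lower of 35 measured (11.4%). The list as a whole was not raised, with 14 of 35 above 0 and a median of -0.09. On scaled arrays 1 other member was called lower. The 4 higher were an acyl-CoA desaturase (DESAT4, sw13468) at 1.45, an oxysterol-binding protein match (sw01632) at 1.31, a 3-ketoacyl-CoA thiolase match (sw13503) at 1.06 and a 3-oxoacid CoA transferase match (sw18740) at 1.02. Without BmESC RNAi the thiolase (sw13503) had 0.86 and the transferase (sw18740) 0.51, and without BmPHO RNAi the transferase had 0.94. The desaturase, which puts double bonds into fatty acids, read 2.31 in BmPHO, 1.77 in BmSCM, 0.57 in BmSCE and 0.59 in BmESC RNAi. With scaled arrays none of the 4 was called, with 0.82 for the desaturase (sw13468), 0.91 for sw01632, 0.80 for sw13503 and 0.43 for sw18740. Apolipophorin III (sw09945), a carrier of lipid in the haemolymph, ran the other way, with -1.24 in BmPHO, -1.02 in BmSCM, 0.79 in BmSCE and 0.05 in BmESC RNAi. An aldo-keto reductase match (sw10994) read -1.03 in BmPHO, -0.84 in BmSCM, 0.95 in BmSCE and 0.90 in BmESC RNAi, so that it was lowered in one pair and raised in the other. Of 35 P450 and detoxification probes 2 were higher and 2 lower. A P450 match of family 4 (sw19748) was among the higher at 1.76.

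Few genes of translation and RNA were called. Elongation factor 2 (sw22958), which moves the ribosome along the message, read 1.64 in BmPHO, 1.34 in BmSCM, 0.07 in BmSCE and 0.35 in BmESC RNAi. The Ef1alpha-like factor (sw22926) was higher by 1.22. These were 2 of 50 translation factors (4%), close to the 3.84% of all measured probes. In ribosome biogenesis 4 of 47 were higher (8.51%): an RNA helicase (sw14777) at 1.73, a match to the nucleolar protein BAP28 (sw13053) at 1.59, fibrillarin (sw00670), which methylates ribosomal RNA, at 1.13 and a match to Noc3 (sw15712) at 1.03. Fibrillarin had 0.84 without BmSCE RNAi and Noc3 0.97 without BmESC RNAi. A match to the largest TFIID subunit (sw19527), a platform for transcription start, was higher by 1.36. It was the 1 higher probe of 34 in the list of RNA polymerase and Mediator (2.94%), below the share of all measured probes. The P-element somatic inhibitor Psi (sw20409), a splicing regulator, stood at 1.05. The match to MAF1 (sw09649), a repressor of RNA polymerase III, had a difference of -1.22, with -0.35 in the knockdown channel and 0.72 in the EGFP RNAi channel, and -0.65 without BmESC RNAi. In that probe most of the difference lay in the EGFP RNAi channel. With scaled arrays elongation factor 2 (sw22958) had 0.90, fibrillarin (sw00670) 0.71, Noc3 (sw15712) 0.98, the TFIID match (sw19527) 0.89, Psi (sw20409) 0.63 and MAF1 (sw09649) -0.71, all under 2-fold.

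Membrane and signalling proteins were called in both directions. A G protein-coupled receptor match (sw07621) read -1.41 in BmPHO, -1.77 in BmSCM, 0.15 in BmSCE and 0.44 in BmESC RNAi. It was the 1 lower of 25 probes (4%) in the list of signalling receptors and ligands, which had 2 higher (8%). Transporters were lower in 5 of 51 (9.80%) and higher in 2. Those lower included a match to the nucleotide sugar transporter family member SLC35E1 (sw16063) at -1.59, a glucose transporter 8 match (sw18455) at -1.40 and a phosphate cotransporter match (sw13967) at -1.20 (-0.60 without BmESC RNAi), while a neurotransmitter transporter match of family 6 (sw16320) was higher by 1.61. A potassium channel match (sw00234) read -0.11 in BmPHO, -0.30 in BmSCM, 0.83 in BmSCE and 1.42 in BmESC RNAi, so it was raised in one pair and near the EGFP level in the other. Of 78 kinases and phosphatases 2 were higher and 2 lower (2.56% each), below the 3.84% and 2.71% of all measured probes. GPRK2 (sw18485), a kinase that desensitizes such receptors, was higher by 1.49, and a match to the tyrosine kinase Abl (sw11318) had a difference of -1.33, which was -0.80 with scaled arrays. Conventional protein kinase C (sw11805) had a difference of -1.20, with BmPHO and BmSCM RNAi more than 2-fold apart at 0.56 and -0.69. It was -1.82 without BmPHO, -0.57 without BmSCM and -0.78 without BmESC RNAi.

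Proteases and immune genes were few among the measured probes. The hemocyte protease that RefSeq names CLIP3 (sw07651) read -1.37 in BmPHO, -1.34 in BmSCM, 0.08 in BmSCE and 0.57 in BmESC RNAi. A match to chymotrypsinogen (sw06867) read -1.90 in BmPHO, -1.75 in BmSCM, 0.09 in BmSCE and -0.18 in BmESC RNAi. A midgut chymotrypsin match (sw19976) was higher by 1.15, with the EGFP RNAi channel itself higher by 1.34, and by 0.65 without BmPHO RNAi, 0.90 without BmESC RNAi and 0.46 with scaled arrays. The study's tables give that probe the gene model BGIBMGA008279, the one whose probe 2th_083 had a difference of -1.69, so these probes disagree. A lysozyme match (sw00913), of the antibacterial enzymes, had a difference of -1.04, and -0.92 without BmPHO RNAi or -0.65 without BmSCE RNAi. The beta-glucosidase match with the lowest difference (sw04028), singled out after its values were seen, read -0.42 in BmPHO, 0.00 in BmSCM, 1.07 in BmSCE and 2.62 in BmESC RNAi, a difference of -2.06 that was -1.29 without BmESC RNAi.

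Of the 5 genes that the study chose from these arrays for RT-PCR of this contrast, 3 were called higher. Chosen on these samples, they are not independent evidence of the direction. The oral cancer overexpressed protein 1 match (sw16070) read 2.31 in BmPHO, 2.34 in BmSCM, 0.26 in BmSCE and 0.57 in BmESC RNAi. CDC25 (sw22828), the phosphatase that starts mitosis, read 2.27 in BmPHO, 2.54 in BmSCM, 0.87 in BmSCE and 0.56 in BmESC RNAi. The ubiquitin hydrolase match USP10 (sw15458) had a difference of 1.32. With scaled arrays CDC25 (sw22828) had 0.91 and USP10 0.79. Cyclin J (sw14313) read 1.69 in BmPHO, 1.20 in BmSCM, 0.59 in BmSCE and 0.96 in BmESC RNAi, a difference of 0.67 below the threshold. The UHRF1-like match (sw06196), at 2.24 in BmPHO and 1.92 in BmSCM RNAi, did not pass the flag on all arrays.

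Several lists of housekeeping genes, found by words in the annotation, held no called probe or 1. Those of translation factors, ribosome biogenesis and carbohydrate metabolism, given above, held more. The called Psi (sw20409) and CDC25 (sw22828) lay outside the splicing and cyclin lists and are not in these counts. No member was called in the lists of cytosolic ribosomal proteins (88), mitochondrial ribosomal proteins (40), proteasome subunits (30) or redox enzymes (26). The same held for the lists of tRNA synthetases and amino acid response (34), cyclins and mitosis (43) and splicing (40). Over all measured probes 425 of 6491 were called, and in the brightest of 4 equal bins 2.46% were higher and 0.924% lower. The brightness of these lists was not compared, and their counts were not tested against those shares. Median differences were -0.33 for tRNA synthetases and amino acid response and -0.26 for redox enzymes, both below 0 under every alternative. The respiratory chain had 1 lower of 55, an ATP synthase subunit (sw06908) at -1.05 (-0.81 without BmSCM RNAi and -0.80 with scaled arrays), and DNA replication and repair 1 lower of 73, a match to the p17 subunit of DNA polymerase epsilon (sw07462) at -1.06 (-0.88 without either BmPHO or BmSCE RNAi and -0.48 with scaled arrays). On scaled arrays 1 proteasome and 1 cyclin probe were higher and 1 probe of the tRNA synthetase list lower. The medians of cytosolic ribosomal proteins (0.06), proteasome subunits (-0.20) and cyclins (-0.18) were on the other side of 0 in at least 1 alternative, with ranges of -0.29 to 0.16, -0.45 to 0.05 and -0.23 to 0.02.

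**Figure D5:**
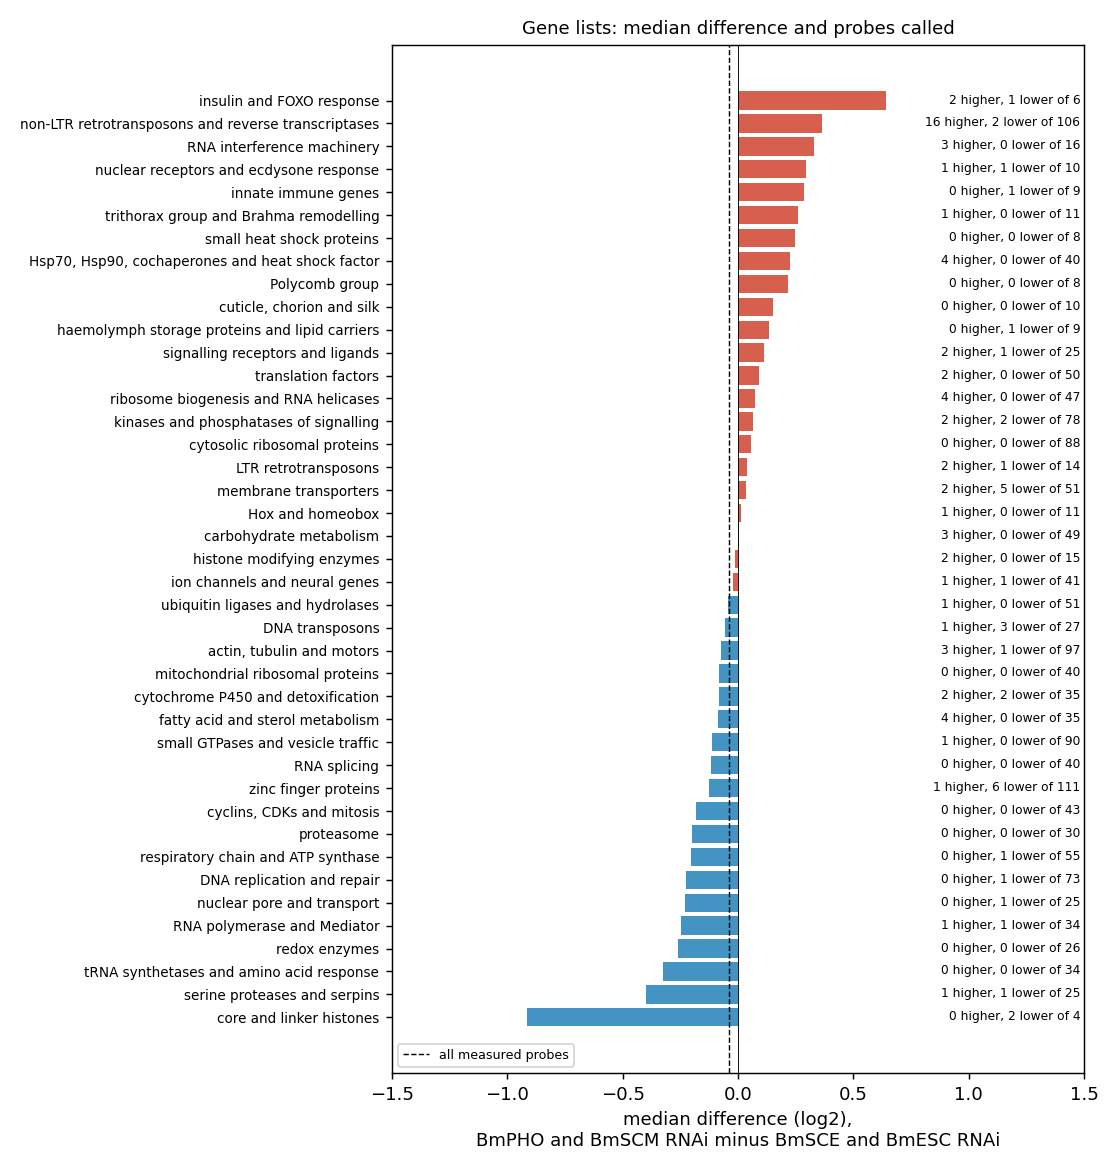
Median difference (log2, horizontal axis) of the measured probes in 41 gene lists, with the number called higher and lower of those measured at the right and the median of all measured probes as a dashed line. Bars are red above that median and blue below it. Non-LTR retrotransposons and reverse transcriptases have 16 higher of 106, and core and linker histones have the lowest median at -0.91.

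Probes measured in 1 pair only were not compared. These were 217 that passed the flag on the BmPHO and BmSCM arrays and on neither of the others, and 615 that passed on the BmSCE and BmESC arrays and on neither of the others. The number passing was 7434 in BmPHO, 8310 in BmSCM, 7833 in BmSCE and 9869 in BmESC RNAi. Since the line comes from ovary, markers of ovarian germ cells were looked up, and 6 of 15 probes were measured, among them aubergine and Ago3, the called one. Their summed Cy5 intensities were 11753 in BmPHO, 16638 in BmSCM, 15379 in BmSCE and 16944 in BmESC RNAi. Probes matched by words for fat body, silk gland, haemocytes, muscle, midgut and follicle cells were measured in 9, 2, 6, 11, 7 and 6 cases. Of these, 1 midgut probe was higher and 1 lower, the chymotrypsin matches above. Their summed Cy5 intensities ran, over the 4 arrays, from 31992 to 43049 for fat body, from 1387 to 3550 for silk gland, from 6635 to 9547 for haemocytes, from 23797 to 44000 for muscle, from 33392 to 38791 for midgut and from 21406 to 35339 for follicle cells. The words also drew in a vitellogenin receptor match for fat body and a cofilin/tropomyosin-type actin match for muscle. The sums are therefore not specific to the tissues named. The part of such cell types in the results was not tested.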

How the data were processed

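RNA from BmN4-SID1 cells was read on silkworm arrays described as 70-mer oligonucleotides, 1 array for each knockdown, with samples of 3 experiments pooled before RNA was isolated. The 3 probe sequences printed above have 69 bases each. The spot intensities were deposited by the authors with the background already subtracted. A column of ratios, Cy5 to Cy3, was also deposited by the authors after a normalization of their own, and the series table deposited by the authors holds its log2. The sources used here do not give that method, the scanner, the image software, the flag rules or RNA quality.

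Intensities under 100 were set to 100, and log2 ratios were normalized within each array by loess against mean brightness over the gene probes (limma 3.58.1, R 4.3.3). Counts and figures used Python 3.11.15, numpy 2.4.6, pandas 2.3.3 and matplotlib 3.10.9. For the values of single channels, each dye was quantile normalized across the 4 arrays. The pair difference is the mean of BmPHO and BmSCM RNAi minus the mean of BmSCE and BmESC RNAi over gene probes that passed the flag on all 4 arrays. A probe was called when the difference reached 2-fold and the pairs did not overlap. No p-value was computed, since each knockdown has 1 array, and the number of arrays limits the precision. The steps were tested on simulated arrays with known changes.

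Members of the gene lists were found by words in the annotation. Of 1316 probes with a gene number, 1237 were found in RefSeq, whose table served for symbols only. Names resting on a protein of another species are written as matches. Probes without a name in the files were named from the study's tables, which were drawn from these arrays. Named probes were chosen by rule, with 1 probe for each name. They are the 15 largest differences in each direction among called probes with both channels at least 400. The 8 widest gaps between the pairs in each direction and up to 4 called members of each list were added. So were the Polycomb and RNA interference lists, of which the measured members and some of the others are printed above. The rest are the genes the study tested by RT-PCR for this contrast, and called probes past 2-fold in opposite directions in both pairs. At most 2 unnamed probes in each direction complete the rule. A few probes outside that rule (further probes of a named gene, chromobox-like 5 and beta-glucosidase) were added with their values known. The members, lists and rules were chosen with earlier results of these data known, and words for further Polycomb proteins and for heat shock cognate 71 were added to the lists after their values had been seen. The alternatives were other normalizations, floors, filters and thresholds, scaled arrays, the knockdown channel alone and leaving out 1 array.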

Additional observations from a re-analysis of the deposited data

Results flagged for a closer look

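The yeast spike-ins are measurements outside the comparison of genes and showed a signal that follows the pairs. Their log2 ratios in BmPHO and BmSCM RNAi minus those in BmSCE and BmESC RNAi were 2.26 for Y1, 2.74 for Y2, 2.38 for Y3, 2.96 for Y4, 0.37 for Y5, 2.86 for Y6, 2.46 for Y7 and 3.26 for Y8. The sources used here do not give the amounts added to each RNA, and the part of the spike-ins' difference in the genes' differences was not tested.

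In 4 called probes both arrays of one pair lay past 0.5 on one side of EGFP RNAi and both arrays of the other pair past 0.5 on the other side. All were lowered in BmPHO and BmSCM RNAi and raised in BmSCE and BmESC RNAi. They are the aldo-keto reductase match sw10994 (-1.86) and the unnamed probes sw12631 (-1.76), sw20397 (-1.42) and sw01016 (-1.32). The difference was not tested, since each knockdown has 1 array.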

How the results depend on the processing

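No probe called higher was called lower, or the reverse, under any alternative. The rule on overlap fixed this in advance for the filters, the thresholds and leaving out 1 array, which reuse the same values. Against 249 higher and 176 lower probes, 104 were lower with both channels at least 400 on all 4 arrays, 539 and 324 were higher and lower without the flag filter, 123 were higher with arrays scaled to the same median absolute deviation, 790 and 810 were called at 1.5-fold, and 59 and 17 at 3-fold. Leaving out each array in turn gave 275 to 299 higher and 211 to 304 lower (265 without BmSCM and 304 without BmSCE RNAi), of which 204 to 209 and 109 to 154 were among the calls on all arrays. With 1 array left in a pair, the rule on overlap is easier to meet. Among the 126 measured named probes, the phosphoenolpyruvate carboxykinase match sw19873 turned to -0.034 with scaled arrays, 73 others moved and 52 did not. A move here is a shift of at least the probe's SD within the pairs, or of the median of that SD, 0.22, where this is larger. The other normalizations, floors and the knockdown channel alone kept both counts within 1.5 times. No paired analysis was possible because each knockdown has 1 array and the labels give no replicate numbers that could pair them. Dim probes limit the comparison: 16738 of 23229 gene probes did not pass the flag on all arrays.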
